A study of Homo sapiens with 18 samples.

Results

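The skeletal muscle differentiation genes described here are 38 named genes of the 57500 in the count tables. They are listed by name, for their known parts in the MEF2 program, myoblast fusion, the sarcomere and the acetylcholine receptor. The rule uses no measured value, but the list was made with earlier results of these data known. All 38 were matched to 1 Ensembl identifier each, with *MYLPF* matched through its current symbol *MYL11*. The RNA came from 2 human cancer cell lines, Rh30 (alveolar rhabdomyosarcoma) and ES8 (Ewing sarcoma), that carried CRISPRi, a system in which an sgRNA brings the dCas9-KRAB repressor to its target gene. Each line had 3 groups of 3 libraries, named A, B and C: parental cells with a control sgRNA (sgCTL), parental cells with an sgRNA against the HSP70 co-chaperone gene *DNAJC17* (sgDNAJC17), and cells of a separate stable population with a lentiviral, 3xFLAG-tagged DNAJC17 that lacks its C-terminal RNA-recognition motif, also given sgDNAJC17 (ΔRRM). All libraries were made after 72 hours of puromycin. No ΔRRM library with sgCTL was analysed here, so the truncated protein, the separate population and the guide cannot be told apart in the ΔRRM comparisons. The study states that cells were plated in triplicate, and does not say whether the triplicates came from separate transductions. The p-values then measure only the spread between these libraries.

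In developing muscle, the myogenic factors MYOD1, MYF5, MYF6 and MYOG switch on muscle genes together with the MEF2 proteins, which bind A/T-rich promoter sites and work with coactivators such as MAMSTR. Differentiating myoblasts leave the cell cycle, fuse by means of the membrane proteins myomaker (*MYMK*) and myomixer (*MYMX*), and build sarcomeres in which myosin thick filaments slide on actin thin filaments under the control of the troponin complex. The fetal muscle acetylcholine receptor holds alpha, beta, delta and gamma subunits and receives the signal of the motor nerve, and RYR1 then releases calcium from the sarcoplasmic reticulum. Rhabdomyosarcoma cells express the early part of this program but do not complete differentiation, and Ewing sarcoma cells are not myogenic.

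Library totals ran from 35342393 to 48245989 counts. *DNAJC17*, the targeted gene, held 474, 522 and 461 counts in Rh30 sgCTL, 113, 81 and 104 in Rh30 sgDNAJC17 and 13437, 13947 and 9849 in Rh30 ΔRRM, where reads of the introduced gene are counted with those of the endogenous one. Markers of the labelled cell types were checked, in CPM (counts over library size as scaled by TMM over the 18 libraries, times 1e+06). The myogenic factor *MYOD1* ran from 967 to 1029 CPM in Rh30 sgCTL and from 0.399 to 0.639 CPM in ES8 sgCTL. *MYOG* held 0 counts in every ES8 sgCTL library. Of 10 rhabdomyosarcoma markers, which include both, 7 were called higher in Rh30 sgCTL than in ES8 sgCTL and 3 lower. Of 12 Ewing markers, 0 were called higher and 9 lower. These were calls at adjusted p under 0.05 and at least 2-fold in edgeR's quasi-likelihood test, where 22.2% and 28.7% of all genes were called. The rhabdomyosarcoma marker *TFAP2B* held no count in Rh30 sgCTL and had a mean of 6.45 CPM in ES8 sgCTL. One library stood apart. ES8 ΔRRM replicate C held 94 counts of *ACTC1* against 0 to 3 in the other 8 ES8 libraries, 25 of *CHRNA1* against 0, and 78 of *DES* against 17 to 31. Over 8 genes that had no count in the ES8 sgCTL and sgDNAJC17 libraries and at least 1000 in every Rh30 library, it held 67 counts, which is 0.259% of the mean sum in Rh30, against 5 counts in each of the other ES8 ΔRRM libraries. The source of these reads was not tested, and the ES8 ΔRRM calls and the tests of the difference between the lines are given with and without it.

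In the control libraries, the muscle genes spanned a wide range of levels in Rh30. On the RPKM scale (CPM per kilobase of exon), 5 of the 38 lay over 100, 10 from 10 to 100, 12 from 1 to 10 and 11 at or under 1. The highest was *DES*, which encodes the intermediate filament desmin, at 462 ± 1.68 RPKM (SD, n = 3). It was followed by *ACTC1*, the cardiac and fetal actin, at 301 ± 1.91, *TNNT1*, a slow troponin T, at 137 ± 4.35, *TPM2*, a tropomyosin, at 106 ± 2.13, and *TNNI1*, a slow troponin I, at 104 ± 3.75. The libraries of *TPM2* and *TNNI1* overlapped, while *DES*, *ACTC1* and *TNNT1* each lay apart from the next. The adult skeletal actin *ACTA1* was at 0.188 ± 0.0565 RPKM, and the myosin heavy chain genes *MYH3* (embryonic), *MYH8* (perinatal) and *MYH7* (slow and cardiac) were at 0.115, 0.0239 and 0.00896 RPKM. Actins and myosin heavy chains are near-identical families, and how the counting assigned reads that match several of them was not given in the sources used here. *TTN*, the giant spring protein titin, was at 0.0449 ± 0.00589 RPKM, but 87.6% of its exonic bases lie under other annotated genes on either strand, and how reads shared between genes were counted was not given in the sources used here. In the order of levels, 17 members overlapped the next member below them, among them the run from *MEF2A* (3.13 RPKM) through *TNNI2*, *MEF2C* and *MYLPF* to *MAMSTR* (2.56 RPKM).

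**Figure D1:**
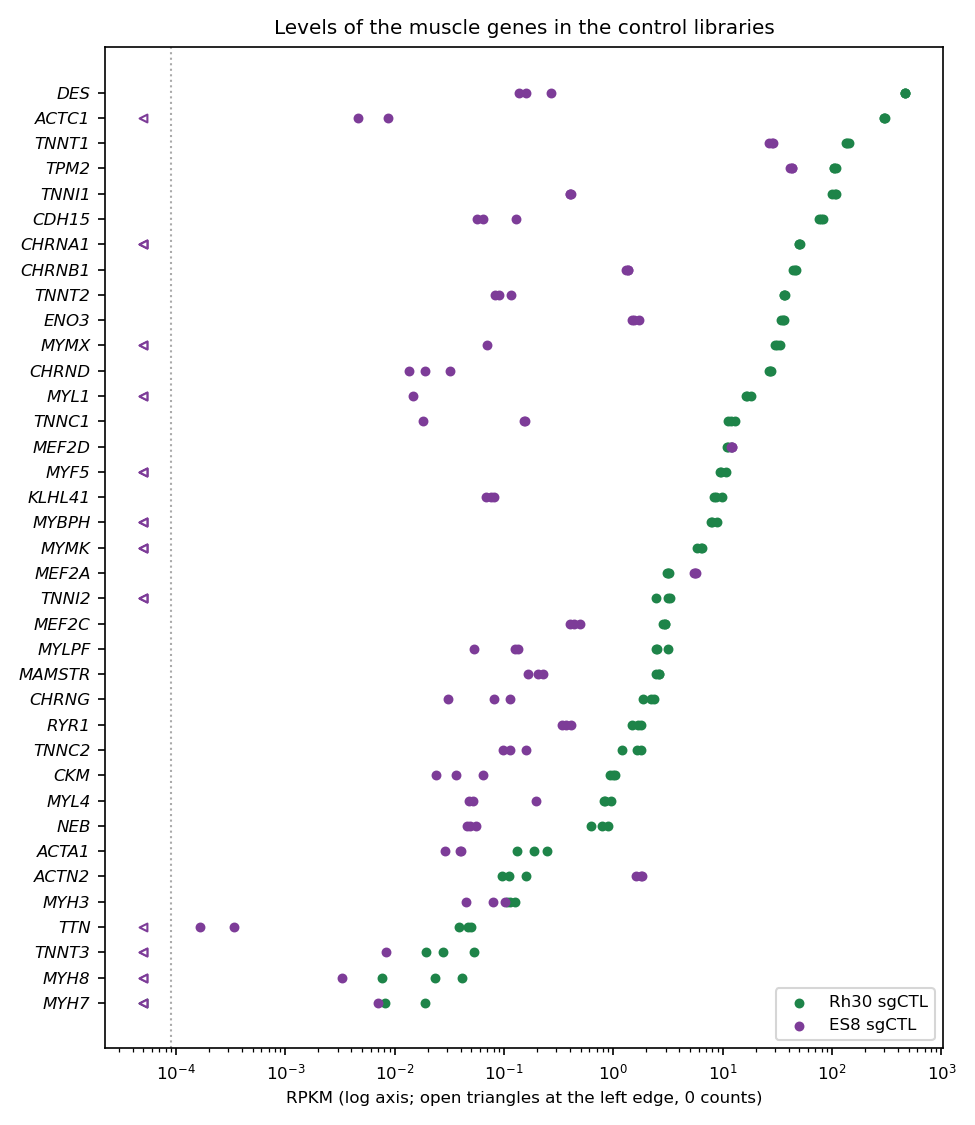
RPKM (log axis) of 37 members in the 3 sgCTL libraries of Rh30 (green) and of ES8 (purple), ordered by the Rh30 mean, with libraries without a count drawn as open triangles at the left edge. *DES* at 462 RPKM is the highest in Rh30, and *ACTN2* and *MEF2A* sit higher in ES8. *MYF6*, with 0 counts in all 6 libraries, is not drawn.

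Against ES8 sgCTL, 29 of the 33 members tested were called higher in Rh30 sgCTL (adjusted p under 0.05 and at least 2-fold in edgeR's quasi-likelihood test), where 22.2% of the 17925 genes tested were. One was called lower, where 28.7% were. This was *ACTN2*, an alpha-actinin of the Z-disc, with 503, 419 and 505 counts in ES8 sgCTL and a log2 difference of -3.87 (SE 0.15, adjusted p = 1.07e-25). *MYF5*, *MYMK*, *TNNI2*, *MYBPH* and *CHRNA1* held no count in any ES8 sgCTL library. Such members can pass the filter on low counts only through Rh30, so the filter can raise the share called higher. Under a stricter filter, which kept genes with 10 counts or more in each library, 16 members were tested and 12 were called higher. Of all 13233 genes tested there, 2398 were called higher. Taking 3 counts per library as the floor, *CHRNA1* was at least 3993-fold higher in Rh30, *MYF5* at least 252-fold, *MYBPH* at least 243-fold, *MYMK* at least 102-fold and *TNNI2* at least 52.7-fold. Several members had reads in ES8: *TPM2* was at 42.5 RPKM, *TNNT1* at 27.8, *MEF2D* at 12.1, *MEF2A* at 5.55 and *ACTN2* at 1.74. *MEF2A* was lower in Rh30 by a log2 difference of -0.85, and *MEF2D* by -0.13, a difference whose sign turned to 0.21 once trends with GC content and gene length were removed (called the GC and length correction from here on).

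The central comparison asked how these genes responded in Rh30 to loss of *DNAJC17* and to its replacement by the ΔRRM form. Over the members as a whole, the summed level was 5671 to 5694 CPM in the sgCTL libraries, 5275 to 5578 CPM in sgDNAJC17 and 3732 to 4056 CPM in ΔRRM, with no overlap between the groups. *DES* and *ACTC1* carry much of these sums, and the single members moved in different ways. The members that fell most with sgDNAJC17 (*MAMSTR*, *MYMX*, *CHRND* and *CHRNG*) were higher in ΔRRM than in sgDNAJC17, and the members that were lowest against sgCTL in ΔRRM (*MYMK*, *MYBPH* and *TTN*) did not pass the test with sgDNAJC17, with or without the replicate letter as a block. Of the 38 members, 34 passed the filter on low counts in the sgDNAJC17 comparison and 33 in the ΔRRM comparisons. *MYF6*, *TNNT3*, *MYH7* and *MYH8* did not pass it in any, and *ACTA1* did not in the ΔRRM comparisons.

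With sgDNAJC17, 4 of the 34 members tested were called lower, where 0.786% of the 15391 genes tested were, and 0 were called higher, where 0.767% were. By adjusted p alone, 13 members were lower, where 16.2% of genes were, and 3 were higher, where 16.1% were. With the replicate letter as a block, 5 were higher and 15 lower. *ACTC1* (0.10, adjusted p = 0.00713) and *MYL1* (0.19, adjusted p = 0.0114) were gained as higher, and *TNNT2* (-0.13, adjusted p = 0.00355) and *DES* (-0.07, adjusted p = 0.0411) as lower. The share of all genes by adjusted p alone was not computed with the block, so this gain has no background beside it. Calls of all genes at 2-fold went from 118 higher and 121 lower to 130 and 137 with the block. The median log2 change of the members was -0.12, beside 0.0045 for all genes tested. In ΔRRM against sgCTL, 3 of 33 members were called lower, where 3.32% of 15442 genes were, and 0 higher, where 6.66% were. By adjusted p alone, 22 members were lower, where 35% of genes were, and 4 were higher, where 33.8% were, with a member median of -0.52 beside -0.013 for all genes. In ΔRRM against sgDNAJC17, 2 of 33 members were called lower and 0 higher, where 3.36% and 4.42% of 15309 genes were. By adjusted p alone, 16 were lower and 6 higher there, where 30.5% and 29.4% of genes were. The 3 comparisons share libraries in pairs and are not independent of each other.

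**Figure D2:**
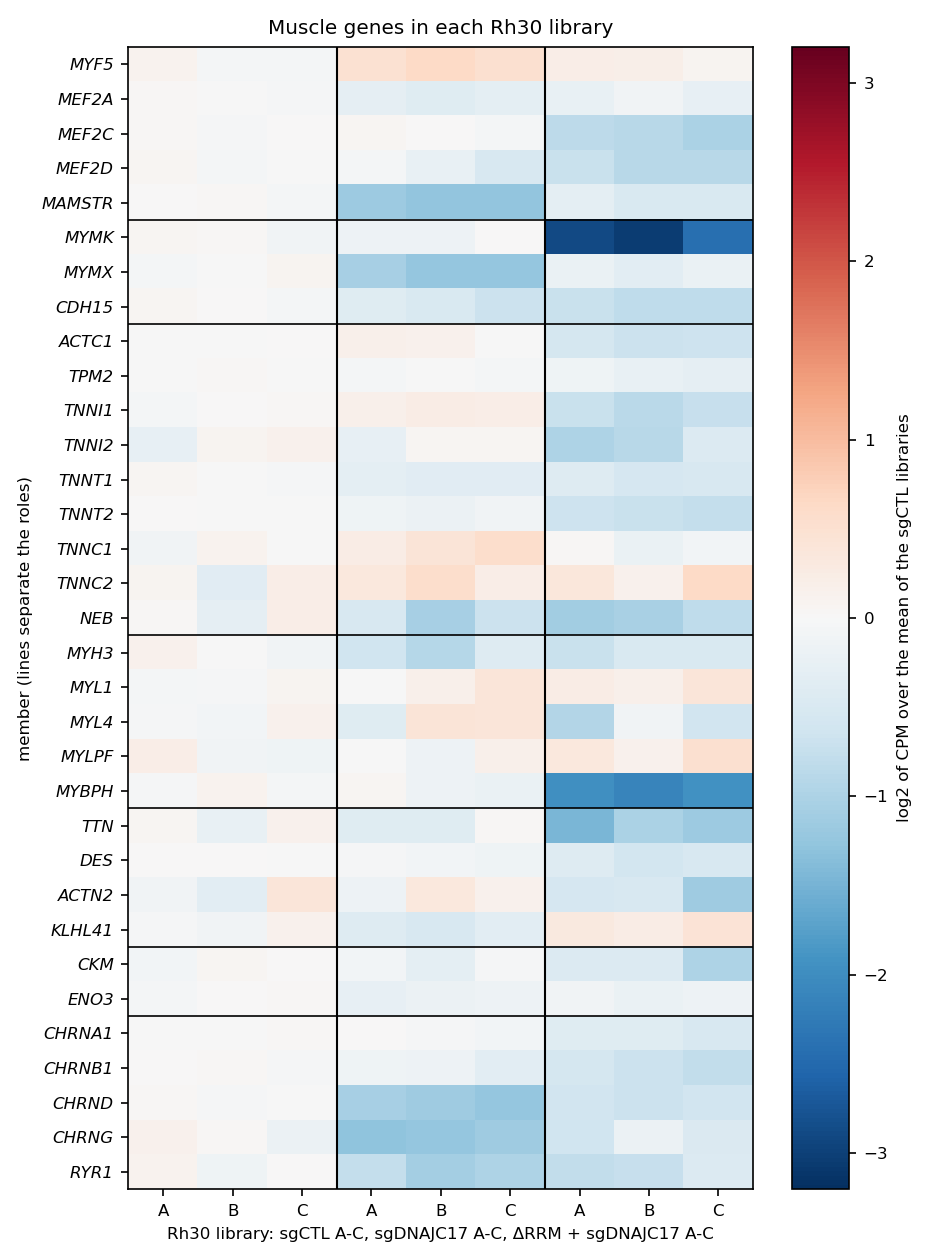
Each row is 1 of 33 members tested in all 3 Rh30 comparisons and each column 1 Rh30 library. Colour is the log2 of its CPM over the mean of the sgCTL libraries, and lines separate the groups and the roles. *MAMSTR*, *MYMX*, *CHRND* and *CHRNG* are bluest in the middle columns (sgDNAJC17), and *MYMK* and *MYBPH* in the right ones (ΔRRM).

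Among the MEF2 and myogenic regulators, *MAMSTR*, the MEF2 coactivator, had the largest change with sgDNAJC17. It was at 5.86, 5.97 and 5.59 CPM in sgCTL, 2.59, 2.42 and 2.41 CPM in sgDNAJC17 and 4.71, 4.17 and 4.13 CPM in ΔRRM. The 3 groups did not overlap, and ΔRRM lay between the other 2. *MAMSTR* fell by 1.21 on the log2 scale with sgDNAJC17 (SE 0.12, adjusted p = 1.69e-05), and was lower by a log2 change of -0.38 in ΔRRM than in sgCTL (SE 0.12, adjusted p = 0.00543) and higher by 0.82 than in sgDNAJC17 (SE 0.16, adjusted p = 7.82e-06). 

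*MEF2C*, the MEF2 factor linked to skeletal and cardiac muscle, was at 34.8, 33.0 and 34.6 CPM in sgCTL, 35.7, 34.3 and 32.9 CPM in sgDNAJC17 and 19.0, 18.4 and 17.1 CPM in ΔRRM. The sgCTL and sgDNAJC17 libraries overlapped, and every ΔRRM library was below them. It did not pass the test with sgDNAJC17 (log2 change 0.02, SE 0.065, adjusted p = 0.843, with the opposite sign, -0.040, when scaled by library totals alone). It fell by 0.87 in ΔRRM against sgCTL (SE 0.075, adjusted p = 5.06e-16). *MEF2D*, a broadly expressed MEF2 factor, was at 75.8, 69.8 and 71.4 CPM in sgCTL, 68.7, 61.1 and 50.6 CPM in sgDNAJC17 and 43.9, 39.1 and 39.0 CPM in ΔRRM. Its groups did not overlap. The step from sgCTL to sgDNAJC17 was -0.25 (SE 0.087, adjusted p = 0.0394), or -0.26 (adjusted p = 0.000202) with the replicate letter as a block. Without the block, it did not pass with the GC and length correction (-0.06, adjusted p = 0.497). Also without the block, it lost its call in 5 of the 6 fits that left out 1 library (adjusted p up to 0.144). The step to ΔRRM was -0.79 (SE 0.066, adjusted p = 1.95e-16), or -0.32 (adjusted p = 2.69e-06) with the correction.

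*MEF2A*, the other broadly expressed MEF2 factor, was at 22.1, 21.7 and 21.3 CPM in sgCTL, 17.9, 16.7 and 17.3 CPM in sgDNAJC17 and 18.4, 20.1 and 18.2 CPM in ΔRRM. It fell by 0.31 with sgDNAJC17 (SE 0.072, adjusted p = 0.00507), and its ΔRRM change of -0.16 against sgCTL did not pass (SE 0.078, adjusted p = 0.0705), though it did with the GC and length correction (-0.20, adjusted p = 0.0107). *MYF5*, an early myogenic factor, went the other way. It was at 16.6, 14.7 and 14.8 CPM in sgCTL, 21.5, 24.0 and 21.7 CPM in sgDNAJC17 and 17.8, 17.4 and 16.4 CPM in ΔRRM, so that sgDNAJC17 lay above both other groups. It rose by 0.56 with sgDNAJC17 (SE 0.083, adjusted p = 0.00034), or by 0.35 with the GC and length correction. The ΔRRM change of 0.20 against sgCTL (adjusted p = 0.0296) lost its call with DESeq2 (adjusted p = 0.0779) and in 4 of the 6 fits that left out 1 library, and turned to -0.036 with library totals alone and to -0.36 with the GC and length correction. *MYF6*, a factor of late differentiation, held no count in 8 of the 9 Rh30 libraries and 2 in 1 sgDNAJC17 library. Among regulators that are not members, *MYOD1* changed by -0.12 with sgDNAJC17 (adjusted p = 0.132) and fell by 0.55 in ΔRRM (adjusted p = 8.71e-11), and *MYOG* fell by 0.33 (adjusted p = 0.00148) and by 0.71 (adjusted p = 7.58e-15). *PAX3* and *FOXO1*, the partners of the fusion gene of alveolar rhabdomyosarcoma, gave 0.32 (adjusted p = 0.00965) and -0.13 (adjusted p = 0.365) with sgDNAJC17, and -0.35 (adjusted p = 0.000249) and -0.75 (adjusted p = 1.45e-09) in ΔRRM.

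**Figure D3:**
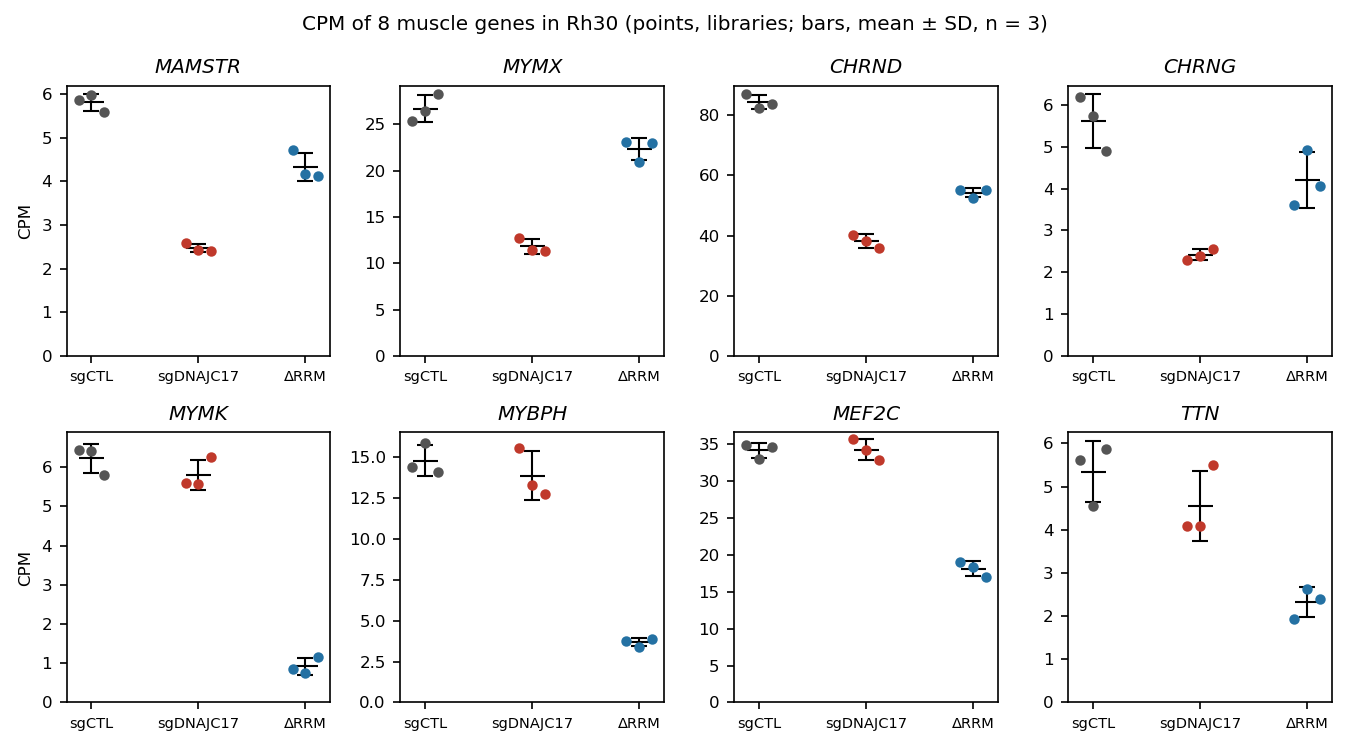
CPM of 8 members in the 9 Rh30 libraries (points), with the mean and SD of the 3 libraries of each group (bars) and each axis starting at 0. In the upper row sgDNAJC17 is the lowest group, and in the lower row ΔRRM is. *MYMX* is at 11.3 to 12.7 CPM in sgDNAJC17 and *MYMK* at 0.755 to 1.16 CPM in ΔRRM.

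The fusion pair separated in the same manner. *MYMX*, which encodes the small fusion peptide myomixer, was at 25.4, 26.4 and 28.3 CPM in sgCTL, 12.7, 11.4 and 11.3 CPM in sgDNAJC17 and 23.1, 21.0 and 23.0 CPM in ΔRRM. All sgDNAJC17 libraries were below all others. *MYMX* fell by 1.16 with sgDNAJC17 (SE 0.079, adjusted p = 5.89e-07), was 0.93 higher in ΔRRM than in sgDNAJC17 (SE 0.097, adjusted p = 7.24e-14), and differed from sgCTL there by -0.22 (SE 0.076, adjusted p = 0.00879), a call lost without sgCTL replicate C or ΔRRM replicate B (adjusted p up to 0.0681). With the GC and length correction this change was -0.42. *MYMK*, which encodes myomaker, the membrane protein needed on both fusing cells, was at 6.45, 6.43 and 5.80 CPM in sgCTL, 5.60, 5.57 and 6.25 CPM in sgDNAJC17 and 0.848, 0.755 and 1.16 CPM in ΔRRM. In raw counts this was 262, 281 and 247, then 251, 205 and 239, then 31, 29 and 34. The first 2 groups overlapped, with a log2 change of -0.09 (SE 0.11, adjusted p = 0.588). *MYMK* fell by 2.74 in ΔRRM against sgCTL (SE 0.17, adjusted p = 2.99e-21) and by 2.67 against sgDNAJC17 (SE 0.19, adjusted p = 4.27e-22), the largest change of any member in the Rh30 comparisons. *CDH15*, the muscle cadherin that joins myoblasts, was at 380, 364 and 348 CPM in sgCTL, 276, 261 and 228 CPM in sgDNAJC17 and 223, 206 and 205 CPM in ΔRRM. It fell with sgDNAJC17 by 0.50 (SE 0.07, adjusted p = 0.000244) and in ΔRRM by 0.75 (SE 0.063, adjusted p = 2.81e-16), the latter -0.40 with the GC and length correction.

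The acetylcholine receptor genes were split as well. *CHRND*, the delta subunit, was at 87.1, 82.5 and 83.8 CPM in sgCTL, 40.3, 38.3 and 35.7 CPM in sgDNAJC17 and 55.3, 52.5 and 55.0 CPM in ΔRRM. The groups did not overlap. It fell by 1.13 with sgDNAJC17 (SE 0.064, adjusted p = 9.29e-08) and by 0.60 in ΔRRM (SE 0.063, adjusted p = 8.82e-13), and was 0.52 higher in ΔRRM than in sgDNAJC17 (SE 0.082, adjusted p = 6.03e-08). *CHRNG*, the gamma subunit of the fetal receptor, lies beside *CHRND* on chromosome 2 (GRCh38, *CHRND* from 232525993 to 232536667 and *CHRNG* from 232539727 to 232546403, both on the plus strand). It was at 6.18, 5.74 and 4.91 CPM in sgCTL, 2.30, 2.39 and 2.56 CPM in sgDNAJC17 and 3.61, 4.92 and 4.06 CPM in ΔRRM. It fell by 1.20 with sgDNAJC17 (SE 0.14, adjusted p = 5.06e-05), and ΔRRM was 0.81 above sgDNAJC17 (SE 0.17, adjusted p = 1.6e-05) and -0.38 from sgCTL, a change that did not pass without sgCTL replicate A or without ΔRRM replicate A (adjusted p up to 0.111), or with DESeq2 (adjusted p = 0.0594). 

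*CHRNA1*, the alpha subunit that binds acetylcholine, was at 241, 241 and 248 CPM in sgCTL, 248, 235 and 228 CPM in sgDNAJC17 and 187, 185 and 172 CPM in ΔRRM. It did not pass with sgDNAJC17 (log2 change -0.02, adjusted p = 0.793) and fell by 0.39 in ΔRRM (SE 0.062, adjusted p = 1.14e-07). *CHRNB1*, the beta subunit, changed by -0.18 with sgDNAJC17 (SE 0.064, adjusted p = 0.0396, or 0.000159 with the block). Without the block, this did not pass with the GC and length correction (adjusted p = 0.127) or in 5 of the 6 fits that left out 1 library. *CHRNB1* fell by 0.64 in ΔRRM (SE 0.063, adjusted p = 1.07e-13). *RYR1*, the calcium release channel, was at 28.3, 23.7 and 26.6 CPM in sgCTL, 15.5, 12.2 and 13.2 CPM in sgDNAJC17 and 15.3, 15.7 and 19.3 CPM in ΔRRM. It fell by 0.92 with sgDNAJC17 (SE 0.095, adjusted p = 2.33e-05), or by 0.60 with the GC and length correction. Its ΔRRM change of -0.61 against sgCTL (adjusted p = 3.41e-09) turned to 0.10 (adjusted p = 0.223) with that correction.

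Among the thick filament genes, *MYBPH*, a myosin-binding protein of the C-protein family, stood apart. It was at 14.4, 15.9 and 14.1 CPM in sgCTL, 15.5, 13.3 and 12.7 CPM in sgDNAJC17 and 3.77, 3.41 and 3.89 CPM in ΔRRM. The first 2 groups overlapped (log2 change -0.08, SE 0.091, adjusted p = 0.557), and all ΔRRM libraries lay far below. *MYBPH* fell by 1.97 in ΔRRM against sgCTL (SE 0.11, adjusted p = 1.01e-23) and by 1.90 against sgDNAJC17 (SE 0.12, adjusted p = 3.77e-24). Of the 7 thick filament genes, 5 were tested, and 0 passed the test with sgDNAJC17 without the block, which added *MYL1*. In ΔRRM, *MYL1*, a fast essential light chain at 21.8 to 24.5 CPM in sgCTL and 25.9 to 30.2 CPM in ΔRRM, was higher by 0.31 (adjusted p = 0.000338), and its sign turned with the GC and length correction (-0.25, adjusted p = 0.00142). *MYLPF*, a fast regulatory light chain at 2.73 to 3.52 CPM in sgCTL, was 0.37 higher (adjusted p = 0.0298) and did not pass with that correction (0.23, adjusted p = 0.17), with DESeq2 (adjusted p = 0.118) or in 4 of the 6 fits that left out 1 library. *MYL4*, an embryonic and atrial light chain, and *MYH3* did not pass against sgCTL in either comparison.

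The thin filament genes, which form the actin, tropomyosin and troponin filament, were more often lower in ΔRRM than with sgDNAJC17 by count, a difference that was not tested. Of 11 such genes, 10 were tested with sgDNAJC17, where 2 fell and 2 rose, near the 16.2% and 16.1% of all genes. In ΔRRM 9 were tested, of which 7 fell and 0 rose, where 35% and 33.8% of all genes did. *ACTC1* was at 1389 to 1406 CPM in sgCTL, 1384 to 1550.1 CPM in sgDNAJC17 and 875 to 952 CPM in ΔRRM. It changed by 0.10 with sgDNAJC17 (adjusted p = 0.207, or 0.00713 with the block) and fell by 0.59 in ΔRRM (SE 0.067, adjusted p = 1.05e-11). *TNNI1* was at 755 to 810 CPM in sgCTL, 876 to 925 CPM in sgDNAJC17 and 431 to 479 CPM in ΔRRM. It was 0.22 higher with sgDNAJC17 (SE 0.06, adjusted p = 0.0126, or 1.26e-06 with the block), and 0.42 higher with the GC and length correction. Without the block, the call was lost in 3 of the 6 fits that left out 1 library. *TNNI1* fell by 0.73 in ΔRRM (SE 0.066, adjusted p = 3.04e-15), or by 0.25 with the GC and length correction. *TNNT1* was at 290 to 308 CPM in sgCTL and fell by 0.33 with sgDNAJC17 (SE 0.057, adjusted p = 0.000914) and by 0.45 in ΔRRM (SE 0.062, adjusted p = 4.07e-09). *TPM2* was at 422 to 438 CPM in sgCTL and 351 to 388 CPM in ΔRRM, and its ΔRRM change of -0.18 (adjusted p = 0.00914) turned to 0.028 with the GC and length correction. The other thin filament genes that passed were the cardiac and fetal troponin T gene *TNNT2* (-0.67 in ΔRRM, -0.28 with the GC and length correction), the fast troponin I gene *TNNI2* (-0.73 in ΔRRM), the slow troponin C gene *TNNC1* (0.43 with sgDNAJC17) and the giant thin filament protein *NEB* (-0.72 with sgDNAJC17 and -0.94 in ΔRRM, the latter -0.61 with the correction). *TNNC2*, a fast troponin C at 1.05 to 1.57 CPM in sgCTL, and *ACTA1*, where tested, did not pass.

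In the scaffold of the sarcomere, *TTN* was at 5.61, 4.55 and 5.87 CPM in sgCTL, 4.08, 4.08 and 5.49 CPM in sgDNAJC17 and 1.94, 2.63 and 2.39 CPM in ΔRRM. It did not pass with sgDNAJC17 (log2 change -0.22, SE 0.15, adjusted p = 0.28) and fell by 1.16 in ΔRRM (SE 0.15, adjusted p = 6.01e-10). With the GC and length correction the ΔRRM change was -0.61 (adjusted p = 0.000278), below the 2-fold line. *DES* was at 1134 to 1141 CPM in sgCTL, 1039 to 1102 CPM in sgDNAJC17 and 762 to 862 CPM in ΔRRM, and fell by 0.46 in ΔRRM (SE 0.067, adjusted p = 1.74e-08). *KLHL41*, an adaptor that stabilises thin filament proteins, was at 21.6 to 25.5 CPM in sgCTL, 16.4 to 18.5 CPM in sgDNAJC17 and 27.6 to 31.8 CPM in ΔRRM. It fell by 0.40 with sgDNAJC17 (SE 0.083, adjusted p = 0.00275) and was 0.76 higher in ΔRRM than in sgDNAJC17 (SE 0.092, adjusted p = 1.53e-11). Its change of 0.37 in ΔRRM against sgCTL turned to -0.15 with the GC and length correction, and 35.8% of its exonic bases are shared with a gene on the same strand. In the metabolic pair, *ENO3*, the muscle enolase, changed by -0.19 with sgDNAJC17 (adjusted p = 0.0265, or 0.00012 with the block). Without the block, the call was lost with the GC and length correction (-0.10, adjusted p = 0.231) and in 3 of the 6 fits that left out 1 library. *CKM*, the muscle creatine kinase, was at only 1.53 to 1.72 CPM in sgCTL and changed by -0.55 in ΔRRM (adjusted p = 0.0329). That call was lost with DESeq2 (adjusted p = 0.118) and in 3 of the 6 fits that left out 1 library. *ACTN2* did not pass against sgCTL in either comparison.

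**Figure D4:**
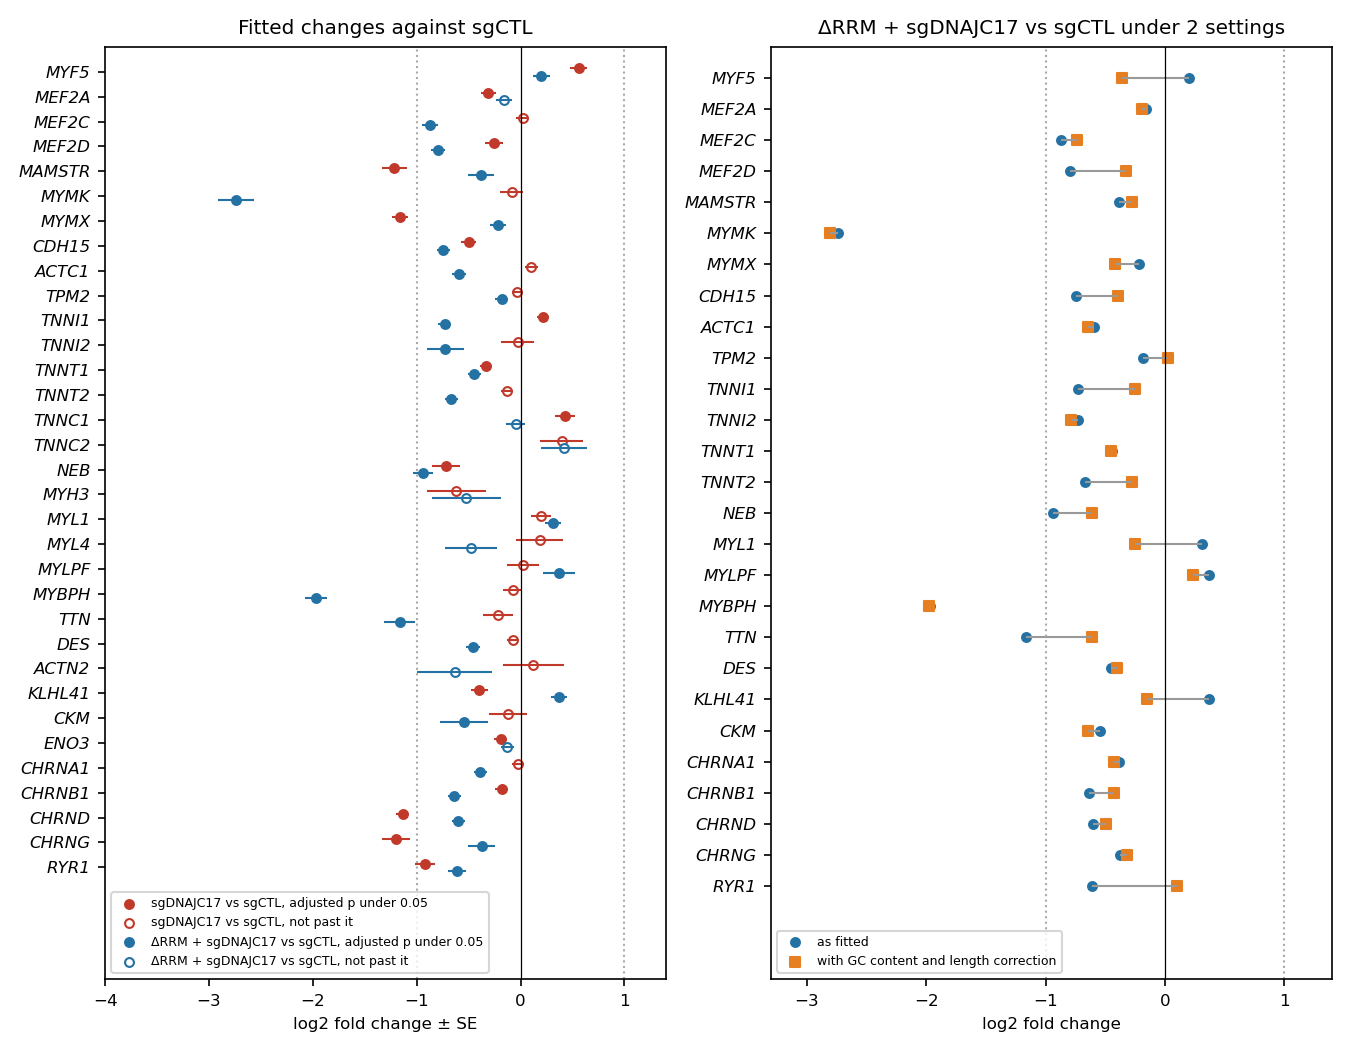
Left, log2 fold change and SE of 33 members against sgCTL in Rh30, for sgDNAJC17 (red) and ΔRRM (blue), filled where the adjusted p is under 0.05, with dotted lines at 2-fold. Right, the ΔRRM change as fitted (circles) and after the GC content and length correction (squares). *MYMK* and *MYBPH* stay near -2.74 and -1.97, while *MYF5*, *TPM2*, *MYL1*, *KLHL41* and *RYR1* change sign between the 2 settings.

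Set side by side, 6 members fell with sgDNAJC17 and were higher again in ΔRRM than in sgDNAJC17 by the adjusted p: *MAMSTR*, *MYMX*, *CHRND*, *CHRNG*, *KLHL41* and *RYR1*. Over the 14982 genes tested in all 3 comparisons, 3.77% did so. For *RYR1* the second step (0.30, adjusted p = 0.00864) lost its call without sgDNAJC17 replicate B or ΔRRM replicate C (adjusted p up to 0.187), and was 0.70 with the GC and length correction. A further 13 members were lower in ΔRRM than in both other groups, where 26.4% of genes were, although for *CDH15* the step from sgDNAJC17 did not pass with that correction (-0.08, adjusted p = 0.232). Of these, 9 did not pass the test with sgDNAJC17, where 17.6% of genes showed this pattern: *MYMK*, *MYBPH*, *TTN*, *MEF2C*, *ACTC1*, *TNNI2*, *TNNT2*, *DES* and *CHRNA1*. With the block, *TNNT2* and *DES* were lower and *ACTC1* higher with sgDNAJC17. Against sgCTL, 10 members were lower in both comparisons, where 12.5% of genes were. The comparisons share libraries in each of these patterns.

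The Rh30 ΔRRM libraries carried a trend over all genes that touches the smaller changes. In ΔRRM against sgCTL, the quartile of genes with the lowest GC content had a median log2 change of 0.32 and the quartile with the highest -0.39. The quartile with the shortest exonic length had 0.32 and the longest -0.30. With sgDNAJC17 the same values were 0.11 and -0.16 for GC content, and 0.10 and -0.09 for length. Of the 33 members tested in ΔRRM, 19 lie in the quartile with the highest GC content, and their median change was -0.55, beside -0.39 for all genes in that quartile. The 3 members in the quartile with the lowest GC content had a median of -0.87, beside 0.32. After the correction the member median in ΔRRM against sgCTL was -0.40, beside -0.018 for all genes, and with sgDNAJC17 it was -0.05, beside 0.0029. Scaling by library totals alone moved the median of all genes in ΔRRM against sgCTL to -0.25 and the members' median to -0.76, and the genes called over the whole table from 1028 higher and 512 lower to 422 and 1476. With the GC and length correction they were 515 and 469.

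Short promoter windows are shown for members on either side of the split, because MEF2 factors and myogenic bHLH factors bind known motifs. RefSeq promoters of 300 bases (GRCh38.p14, 250 before and 50 after the start) were found for 25 of the 38 members, 40 promoters in all. The MEF2 motif, searched by its consensus on both strands, was in 7 of the 40, and in 2.99% of all 35116 promoters of that length. The *MYF6* match among these 7 overlaps the letters TATAAA, the TATA box sequence. The E-box CAGCTG was in 13 of the 40, against 17.9% of all promoters, and the E-box CAGGTG or its complement CACCTG was in 13, against 20.6%. In these windows, 5′ to 3′ on the gene's strand, capitals mark the E-box in *CHRND*, *CHRNA1* and *MYBPH* and the MEF2 motif in *KLHL41* and *TTN*.
CHRND: ctcctcccccaaCACCTGtcccctctcccg
CHRNA1: ctgagggcagccCAGCTGtcgctcccacaa
MYBPH: gacctgaccccaCAGCTGggaatcgtttgc
KLHL41: gagttggtatCTATATTTAGctagtgggat
TTN: ctttgaggtaCTAAATTTAGcactgtcaat
The windows lie at chr2:232526121-232526150 (plus strand), chr2:174764530-174764559 (minus), chr1:203175879-203175908 (minus), chr2:169509629-169509658 (plus) and chr2:178807571-178807600 (minus). The motifs begin 27, 75, 70, 63 and 167 bases before the start that RefSeq gives. In the annotation behind the count files, the genes *CHRND*, *CHRNA1* and *TTN* begin further upstream, so that these 3 windows lie inside the gene. An E-box stood in *CHRND*, lowest with sgDNAJC17, and in *MYBPH*, lowest in ΔRRM. The MEF2 motif stood in *KLHL41*, lower with sgDNAJC17, and in *TTN*, lower in ΔRRM. *KLHL41* and *TTN* also held an E-box elsewhere in their promoters, so the printed windows do not divide the genes by motif. None of the 300-base windows of *MAMSTR* held the MEF2 motif, though an E-box CACCTG was found there. *MYMK*, *MYMX* and *CHRNG* were among the 13 members with no entry. A match describes the sequence only, and no match says only that these letters are not in the window.

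Further muscle lists, which share functions with the members, were counted by adjusted p in Rh30, beside 16.2% of all genes lower and 16.1% higher with sgDNAJC17 and 35% lower and 33.8% higher in ΔRRM. Several of the counts lie near these shares, and none was tested against them. Of 18 tested genes of the neuromuscular junction and membrane, 12 were lower and 0 higher by adjusted p with sgDNAJC17, led by the laminin receptor subunit *ITGA7* (-0.73) and *CDH2* (-0.69), and 13 were lower and 2 higher in ΔRRM, led by dystroglycan (*DAG1*, -1.14). Of the genes of excitation and calcium handling, 4 of 12 were lower with sgDNAJC17 and 9 of 13 in ΔRRM, where 1 was higher, with *STAC3* at -0.59 and -0.99 and the muscle sodium channel *SCN4A* at -0.90 and -0.85. Of 18 further contractile genes, 4 were lower and 2 higher with sgDNAJC17, and 9 lower and 5 higher in ΔRRM. *CSRP3*, a Z-disc protein, fell by 0.82 with sgDNAJC17 and was higher by 1.51 in ΔRRM. Of 15 myogenic core regulators, 6 were lower and 2 higher with sgDNAJC17, and 10 lower and 2 higher in ΔRRM. That list also holds the members *MYF5* and *MYF6*, and it shares *MYOD1* and *MYOG* with the rhabdomyosarcoma markers below. Of 13 inhibitors of myogenesis, 4 were lower and 3 higher with sgDNAJC17, and 3 lower and 8 higher in ΔRRM. For muscle metabolism, 3 of 8 were lower with sgDNAJC17, among them the brain creatine kinase *CKB* (-1.07), and 5 lower and 2 higher in ΔRRM. The cell cycle list mixed inhibitors such as *CDKN1A* with genes of dividing cells such as *CCNB1*, so its counts give no direction of cell cycle exit. In it, 6 of 13 were lower and 2 higher with sgDNAJC17, and 5 lower and 3 higher in ΔRRM.

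Markers of other cell types were read beside these changes. *KRT8* and *KRT18*, keratins of simple epithelia, were at 0.658 to 1.01 and 0.222 to 0.274 CPM in Rh30 sgCTL, at 7.43 to 10.8 and 2.20 to 3.92 CPM in sgDNAJC17 and at 8.10 to 10.1 and 2.55 to 3.31 CPM in ΔRRM. Of 14 epithelial markers, 9 were tested in each comparison with sgCTL and 5 were called higher in each, where 0.767% of all genes were with sgDNAJC17 and 6.66% in ΔRRM. Markers at or near 0 in sgCTL can pass the filter on low counts only through the group where they are higher. The filter can thus raise this share. The counts of the next lists are by adjusted p, with 16.2% of all genes lower and 16.1% higher with sgDNAJC17 and 35% lower and 33.8% higher in ΔRRM. The summed level of the epithelial list was 153 to 164 CPM in sgCTL, 162 to 176 CPM in sgDNAJC17 and 191 to 209 CPM in ΔRRM, and *CLDN7* and *RAB25* were at 0 in sgCTL. Of 12 Ewing markers, 5 were tested, with 1 lower and 2 higher in sgDNAJC17 and 4 lower and 1 higher in ΔRRM, and *NKX2-2* was at 0 in Rh30 sgCTL. Of 8 rhabdomyosarcoma markers tested, 5 were lower with sgDNAJC17 and 8 in ΔRRM. The sum of all 10 on the list was 1732 to 1812 CPM in sgCTL, 1372 to 1514 CPM in sgDNAJC17 and 1101 to 1238 CPM in ΔRRM. Among them, *TFAP2B* was at 0 in all 3 Rh30 groups. Of 11 smooth muscle markers tested, 1 was lower and 2 higher with sgDNAJC17 and 6 lower and 1 higher in ΔRRM, and of 6 cardiac markers 0 lower and 2 higher, then 2 lower and 2 higher. Each of these last lists shares 2 genes with the members. The part of other cell types in the muscle gene changes was not tested, and in bulk RNA fewer cells of a type and less RNA per cell cannot be told apart.

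In ES8, 17 members were tested in each comparison. With sgDNAJC17, 1 was called lower, where 0.286% of 17143 genes were, and 0 higher, where 1.66% were. By adjusted p alone, 2 were lower and 2 higher, where 13.8% and 13.6% of genes were. The called member was *MAMSTR*, with 23, 24 and 19 counts in sgCTL, 8, 8 and 10 in sgDNAJC17 and 27, 22 and 24 in ΔRRM. The sgDNAJC17 libraries were below all others. It changed by -1.06 (SE 0.33, adjusted p = 0.0365), and at these counts the call was lost in all 6 fits that left out 1 library (adjusted p from 0.0675 to 0.13). It was 1.30 higher in ΔRRM than in sgDNAJC17 (SE 0.36, adjusted p = 0.0295), the only member called there, where 0.48% of 17099 genes were called higher and 1.49% lower, and 5 of the 6 fits that left out 1 library lost it (adjusted p up to 0.11), among them that without ΔRRM replicate C. *RYR1* fell by 0.76 (SE 0.15, adjusted p = 0.00496) with sgDNAJC17, with 296, 308 and 275 counts in sgCTL and 164, 134 and 128 in sgDNAJC17. *MEF2D* rose by 0.71 (SE 0.066, adjusted p = 0.000224), with 3910, 3610 and 3931 counts in sgCTL, 5303, 4753 and 5383 in sgDNAJC17 and 3329, 3348 and 3775 in ΔRRM. *TNNT1* was 0.31 higher (adjusted p = 0.0228), a call lost in 4 of the 6 fits that left out 1 library. In ES8 ΔRRM against sgCTL, 0 of 17 members were called in either direction by edgeR, or by DESeq2, where edgeR called 0.0116% of 17199 genes higher and 0.0233% lower. Without ΔRRM replicate C the count of called members was also 0 in either direction. Of the 17, 2 had an unadjusted p under 0.05 in edgeR's test, and the share of all genes at that looser threshold was not computed.

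The difference of the response between the lines (Rh30 minus ES8) was then tested. For sgDNAJC17, 2 of 34 members were lower in this difference, where 4.55% of 18899 genes were, and 1 was higher, where 5.23% were. These were *MEF2D* (-0.94, SE 0.12, adjusted p = 0.000159), whose changes had opposite signs in the lines, *TNNT1* (-0.62, SE 0.11, adjusted p = 0.00179) and *TNNI1* (0.46, SE 0.13, adjusted p = 0.0233), the last lost in 6 of the 12 fits that left out 1 library. *MAMSTR* had a difference of -0.13 (SE 0.36, adjusted p = 0.898), which does not show that the lines responded alike. *RYR1* had -0.14 (SE 0.18, adjusted p = 0.713). For ΔRRM, 14 of 33 members were lower in the difference, where 21.5% of 18854 genes were, and 0 higher, where 19.9% were. Without ES8 ΔRRM replicate C the count was 10 of 34 members tested, where 3746 of 19443 genes were lower. The member median of the difference went from -0.65 to -0.31 without that library. The 14 included *NEB* (-1.02), *TNNI1* (-0.98), *MEF2D* (-0.75), *MEF2C* (-0.71), *CHRNB1* (-0.65) and *TNNT1* (-0.31). Each of these named members had at least 58 counts in every ES8 library of the test and kept its call without replicate C. With the GC and length correction the differences were smaller for *TNNI1* (-0.53), *CHRNB1* (-0.39), *MEF2D* (-0.28) and *TNNT1* (-0.20), each with an adjusted p under 0.05.

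**Figure D5:**
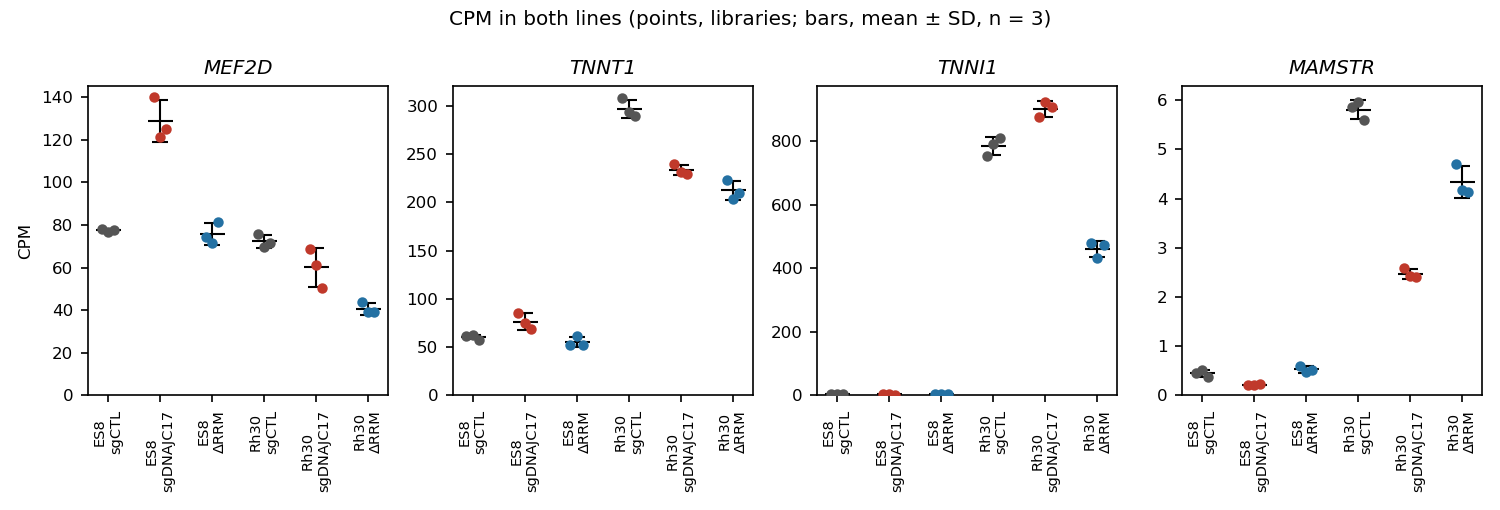
CPM of 4 members in all 18 libraries, with the mean and SD of each group of 3 and axes starting at 0. *MEF2D* is highest in ES8 sgDNAJC17 and lower in Rh30 sgDNAJC17 than in its control, *TNNT1* moves in opposite directions in the lines, *TNNI1* is near the axis in ES8, and *MAMSTR* is lowest in the sgDNAJC17 group of each line.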

How the data were processed

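RNA-seq was analysed from 18 libraries of Rh30 and ES8 cells, 3 in each of 6 groups taken from the sample titles. The counts are whole reads per gene as the authors deposited them. The submitters' processing notes name Trimmomatic 0.36, STAR 2.5.2b, featureCounts of Subread 1.5.2 and GRCh38. In the files, 85.3% of 18959 protein-coding genes start within 1000 bases of their GRCh38 position, and 4.04% of their GRCh37 position. RNA was poly-A selected, and the strand setting of the counting was not given in the sources used here, so reads of antisense genes cannot be told apart. Members and lists were chosen with earlier results of these data known.

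Each comparison was fitted with edgeR 4.0.16 (R 4.3.3) by the quasi-likelihood test on its own 6 libraries, with TMM scaling and the filterByExpr filter, and p-values were adjusted by Benjamini-Hochberg over all genes tested. Calls required 2-fold or more at adjusted p below 0.05. The difference between lines was fitted on 12 libraries and called by adjusted p alone. CPM and RPKM were computed with TMM over all 18 libraries. In the alternatives, DESeq2 1.42.0 was run, and GC content and length trends were removed by lowess with a span of 0.3. Simulated data with 200 changed genes were used as a test: all 200 were recovered for Rh30 sgDNAJC17 (15219 genes, 2 false calls) and ΔRRM (15239 genes, 2 false calls) against sgCTL, and for the ΔRRM difference between lines (18565 genes, 12 false calls). The planted changes were all larger than 2-fold and lay in genes above a floor of counts. Recovery of smaller changes, or of changes at low counts, was not tested. Library totals of 35342393 to 48245989 counts set the precision, and floors of 3 counts cover counting error only.

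In Rh30 sgDNAJC17 against sgCTL, libraries with the same letter deviated together (r = 0.577, 0.287 and 0.348 over 11426 genes with a mean of at least 100 counts), so the letters were taken to pair them. They did not in the other comparisons. Values in every library are given for *MAMSTR*, the MEF2 and fusion members and every member called in an Rh30 comparison, and other members by range and examples. *DNAJC17*, *MYOD1*, *MYOG*, *PAX3* and *FOXO1* were also named, and from each further list genes among the 2 with the smallest p in each Rh30 comparison with sgCTL. Defining markers at 0 (*NKX2-2*, *CLDN7*, *RAB25* and *TFAP2B*) were named after their values were seen.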

Additional observations from a re-analysis of the deposited data

Results flagged for a closer look

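The response to sgDNAJC17 differed between Rh30 and ES8 (interaction in edgeR's quasi-likelihood test) for *MEF2D* (-0.94), *TNNT1* (-0.62) and *TNNI1* (0.46), each as the log2 change in Rh30 minus that in ES8. The ΔRRM response against sgCTL differed for 14 members, each with a lower value in Rh30: *CHRNA1* (-6.37), *ACTC1* (-5.47), *MYMK* (-5.32), *MYBPH* (-4.55), *CDH15* (-1.42), *DES* (-1.40), *TNNT2* (-1.26), *NEB* (-1.02), *TNNI1* (-0.98), *MEF2D* (-0.75), *MEF2C* (-0.71), *CHRNB1* (-0.65), *TNNT1* (-0.31) and *TPM2* (-0.26). The first 4 of these had 0 to 3 counts in each ES8 library of the test, apart from ES8 ΔRRM replicate C, which held 94 counts of *ACTC1* and 25 of *CHRNA1*. Without that library *ACTC1* turned to 2.40, and the calls of *MYMK* (-2.74), *CHRNA1* (-0.39) and *DES* (-0.53) were lost. The *MYMK* call was lost in 4 of the 12 fits that left out 1 library, the others being those without an ES8 sgCTL library. *DES* (adjusted p = 0.0964) and *CHRNA1* (adjusted p = 0.0512) did not pass with DESeq2, which gave no adjusted p for *ACTC1*. *MYBPH* did not pass with the GC and length correction (adjusted p = 0.0535) or the replicate block (adjusted p = 0.0509), and lost its call in 10 of the 12 fits that left out 1 library and *TPM2* in 5.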

How the results depend on the processing

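Counts of members are given as higher and lower. With no fold requirement they were 3 and 13 in Rh30 sgDNAJC17 against sgCTL, 4 and 22 in Rh30 ΔRRM against sgCTL, 6 and 16 in ΔRRM against sgDNAJC17, and 2 and 2 in ES8 sgDNAJC17. In ES8 ΔRRM against sgDNAJC17, 2 were lower, where 7.36% of all genes were. In Rh30 against ES8 controls, 3 were lower, where 45.5% of all genes were. With the replicate block, 5 were higher by adjusted p in Rh30 sgDNAJC17, also with the GC and length correction, and the *MAMSTR* calls in ES8 went to 0. The pairing by letter changed no other count by over 1.5 times, except that the interaction for sgDNAJC17 had 4 lower with both. With library totals alone, Rh30 ΔRRM had 6 lower against sgCTL and 5 against sgDNAJC17, 0 were higher by adjusted p against sgCTL, Rh30 against ES8 had 2 lower, and signs turned for *MEF2C* (-0.040 with sgDNAJC17), *MYF5* (-0.036 in ΔRRM against sgCTL) and *MEF2A* (-0.022 in ΔRRM against sgDNAJC17). The 4 members higher by adjusted p in ΔRRM against sgCTL were 2 with DESeq2, with no filter or at adjusted p under 0.01, 1 with all 18 libraries in 1 fit, and 0 with the GC and length correction, with or without the block. That correction, again with or without the block, turned the sign in ΔRRM against sgCTL of *MYF5* (-0.36), *TPM2* (0.028), *MYL1* (-0.25), *KLHL41* (-0.15) and *RYR1* (0.10), of *MEF2D* between the lines (0.21), and of *TPM2* in the interaction (0.0016 and 0.0031). The single ES8 call in sgDNAJC17 was 0 with DESeq2, no filter, at least 10 counts in every library or adjusted p under 0.01, and 1 was higher with all 18 libraries. In ES8 ΔRRM against sgDNAJC17, the 1 higher was 0 with DESeq2, the 10-count minimum or adjusted p under 0.01, 3 with no filter, and 3 with 1 lower with all 18 libraries. With no filter, ES8 ΔRRM had 2 higher against sgCTL and Rh30 ΔRRM 1 higher against sgDNAJC17. The 10-count minimum left 12 higher in Rh30 against ES8, since fewer members were tested. For the interaction with sgDNAJC17, the 1 higher was 0 with all 18 libraries or adjusted p under 0.01, and with a 2-fold requirement 0 and 0, with 8 lower for ΔRRM. The cause of these shifts was not tested. Of 1093 values of named members under these alternatives, 1032 kept direction and side of the threshold.

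Leaving out 1 library at a time gave 4 to 5 lower in Rh30 sgDNAJC17 (2 to 4 higher and 10 to 13 lower by adjusted p), 3 to 4 lower in ΔRRM against sgCTL (2 to 4 and 20 to 23), 2 to 3 lower in ΔRRM against sgDNAJC17 (5 to 8 and 15 to 17), 0 lower in ES8 sgDNAJC17, 0 in ES8 ΔRRM against sgCTL, 0 to 1 higher in ES8 ΔRRM against sgDNAJC17, 29 to 30 higher in Rh30 against ES8, 0 to 1 higher and 2 to 4 lower in the sgDNAJC17 interaction, and 0 to 1 higher and 10 to 14 lower in the ΔRRM interaction. *MEF2C* with sgDNAJC17 ran from -0.0028 to 0.043 and the *ACTC1* interaction from -6.29 to 2.40. Members under 10 counts in ES8 carry little information there.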

Other observations

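Among genes outside the members in Rh30, *HDAC9* and *HDAC5*, class IIa histone deacetylases known to hold MEF2 factors inactive, gave log2 changes of 0.68 (SE 0.10, adjusted p = 0.000333) and -0.40 (SE 0.067, adjusted p = 0.000794) with sgDNAJC17, and 0.74 (SE 0.099, adjusted p = 1.73e-09) and -0.997 (SE 0.066, adjusted p = 1.81e-20) in ΔRRM, by edgeR's quasi-likelihood test. The genes thus moved in opposite directions in each comparison, which share the sgCTL libraries. *HEYL*, a Notch target, fell by 1.06 in ΔRRM (SE 0.066, adjusted p = 1.18e-21). The mitotic cyclin genes *CCNB1* and *CCNA2* rose by 0.91 and 0.72 in ΔRRM, and *LDHA*, a glycolytic enzyme gene, rose by 0.65. *KLHL40*, a partner of thin filament proteins related to *KLHL41*, fell by 0.93 with sgDNAJC17, and *SYNPO2L*, a Z-disc gene, fell by 1.44 in ΔRRM.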
